A study of Mus musculus with 10 samples.

Results

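The 4 Hox gene clusters of the mouse genome were examined for histone H4 acetylation and butyrylation in male germ cells. The members were all islands, that is, stretches called as enriched over input DNA, that overlapped 4 fixed spans of genome build mm9 by at least 1 bp. The spans were chr6:52090000-52230000 for HoxA (140 kb), chr11:96040000-96240000 for HoxB (200 kb), chr15:102740000-102880000 for HoxC (140 kb) and chr2:74490000-74620000 for HoxD (130 kb). Together they held 123 of the 301484 islands in the 8 deposited lists, and 25 of the 59989 regions obtained by merging all lists. The 200 kb on each side of every span served as local background and held 308 islands in 59 regions. No measured value entered the definition of the spans, but they were chosen with earlier results of these data known.

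The study profiled spermatocytes and round spermatids fractionated from the testis of Oncins France 1 mice and the labels name no treatment or genotype. Spermatocytes are the germ cells that pass through meiosis, and round spermatids are the haploid cells that follow. Mononucleosomes were immunoprecipitated, about 100 µg per reaction with 5 µg of rabbit antibody, against histone H4 bearing an acetyl (ac) or a butyryl (bu) group on lysine 5 (K5) or on lysine 8 (K8). Each of the 8 combinations of stage and mark had 1 library, and each stage had 1 input library of nucleosomes taken before immunoprecipitation. No source used here gives the number of animals behind a library. The purity of the fractions was not checked, because the files hold no expression values. With 1 library per group there was no test between stages or marks, and a stage cannot be told apart from the library that represents it. All 95% intervals below are exact conditional binomial intervals that cover counting error only, and no source names molecular identifiers, so reads need not stem from separate molecules.

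Hox genes encode homeodomain transcription factors that give cells their position along the head-to-tail axis of the embryo. Within a cluster the genes lie side by side in the order in which they act along that axis, from genes of the head end to genes of the tail and limb tips. In many cells that do not use them, the clusters are held silent by Polycomb proteins, while acetylation of histone tails is a general feature of open chromatin. Butyrylation occupies the same lysines with a longer acyl chain, so a given lysine of 1 histone molecule carries one or the other.

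The clusters hold 38 protein-coding members here. In the RefSeq gene table of build GRCm38.p6, all 38 were found, and their order by rising position was read from it. HoxA ran from Hoxa2, which patterns the second pharyngeal arch, to Hoxa13, which acts in digits and the urogenital tract, between Skap2 on one side and Evx1 and Hibadh on the other. HoxB ran in the other direction, from Hoxb13, a gene of the tail end and prostate, to Hoxb1, a gene of the hindbrain. HoxC ran from Hoxc13, which is needed for hair and nails, to Hoxc4. HoxD ran from Hoxd13, a digit gene, to Hoxd1, between Lnpk and Evx2 on one side and Mtx2 on the other. That build differs from the islands' mm9, so no island was assigned to a gene, promoter, exon or intron. Regions are named by their mm9 coordinates, counted from 1.

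To show the kind of sequence that regulates these genes, the 250 bases before the start of 1 member per cluster are printed, with each CpG dinucleotide in capitals. They are the matched promoters with the most CpG in their cluster, taken from the RefSeq promoter table of GRCm38.p6. In that build they lie at chr6:52260881-52261130 on the minus strand (Hoxa13), chr11:96318017-96318266 on the plus strand (Hoxb4), chr15:103034145-103034394 on the plus strand (Hoxc4) and chr2:74667975-74668224 on the plus strand (Hoxd13). These coordinates cannot be laid over the mm9 islands.
Hoxa13: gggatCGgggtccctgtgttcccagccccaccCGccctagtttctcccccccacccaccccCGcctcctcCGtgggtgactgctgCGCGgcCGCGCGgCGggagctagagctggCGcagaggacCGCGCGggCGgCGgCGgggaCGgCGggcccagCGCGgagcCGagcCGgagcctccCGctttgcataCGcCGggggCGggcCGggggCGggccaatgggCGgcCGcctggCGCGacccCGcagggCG
Hoxb4: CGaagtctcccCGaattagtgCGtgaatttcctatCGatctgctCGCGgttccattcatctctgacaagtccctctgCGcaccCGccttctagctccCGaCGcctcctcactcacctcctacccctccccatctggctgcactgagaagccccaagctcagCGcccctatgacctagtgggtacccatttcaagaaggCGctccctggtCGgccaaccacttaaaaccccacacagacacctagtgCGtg
Hoxc4: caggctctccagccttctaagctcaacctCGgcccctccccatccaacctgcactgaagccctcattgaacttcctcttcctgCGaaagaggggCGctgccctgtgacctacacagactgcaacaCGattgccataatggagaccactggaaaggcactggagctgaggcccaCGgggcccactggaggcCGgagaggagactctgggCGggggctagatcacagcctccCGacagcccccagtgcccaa
Hoxd13: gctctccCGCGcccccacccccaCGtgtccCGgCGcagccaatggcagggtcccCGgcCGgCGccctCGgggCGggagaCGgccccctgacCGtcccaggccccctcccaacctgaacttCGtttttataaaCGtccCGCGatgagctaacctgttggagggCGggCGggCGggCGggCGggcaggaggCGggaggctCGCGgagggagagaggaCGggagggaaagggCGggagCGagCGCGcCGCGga

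The Hoxa13 sequence held 35 CpG and that of Hoxd13 held 31, counted on the printed strand. Hoxb4, a gene known for its part in blood stem cells, had 14, and Hoxc4, the only HoxC member matched, had 8. Of the 38 members, 22 were matched, with 24 promoter entries because Hoxa10 and Hoxd11 had more than 1. Over these 24 entries the median was 12.5 CpG per 250 bases, with a range from 2 at one Hoxd11 entry to 35. Over all 32841 entries of the table the median was 6. Above that median lay 19 of the 24 member entries and 46.3% of all entries. The GC content had a median of 58.6% in member entries and 52.4% in all entries. The core homeodomain motif TAAT, searched on both strands as TAAT or ATTA, occurred in 18 of the 24 member entries (75.0%) and in 54.9% of all entries. These counts describe letters only and do not show that a factor binds.

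In spermatocytes the Hox spans carried more islands than in round spermatids in every list. Spermatocytes had 22 H4K5ac islands, 19 of H4K5bu, 18 of H4K8ac and 23 of H4K8bu, or 82 of the 159462 islands of that stage. Round spermatids had 13, 12, 5 and 11 in the same order, or 41 of 142022. The difference was not even over the clusters. HoxA went from 31 islands to 12, HoxB from 15 to 5 and HoxD from 25 to 15, while HoxC had 11 and 9.

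**Figure D1:**
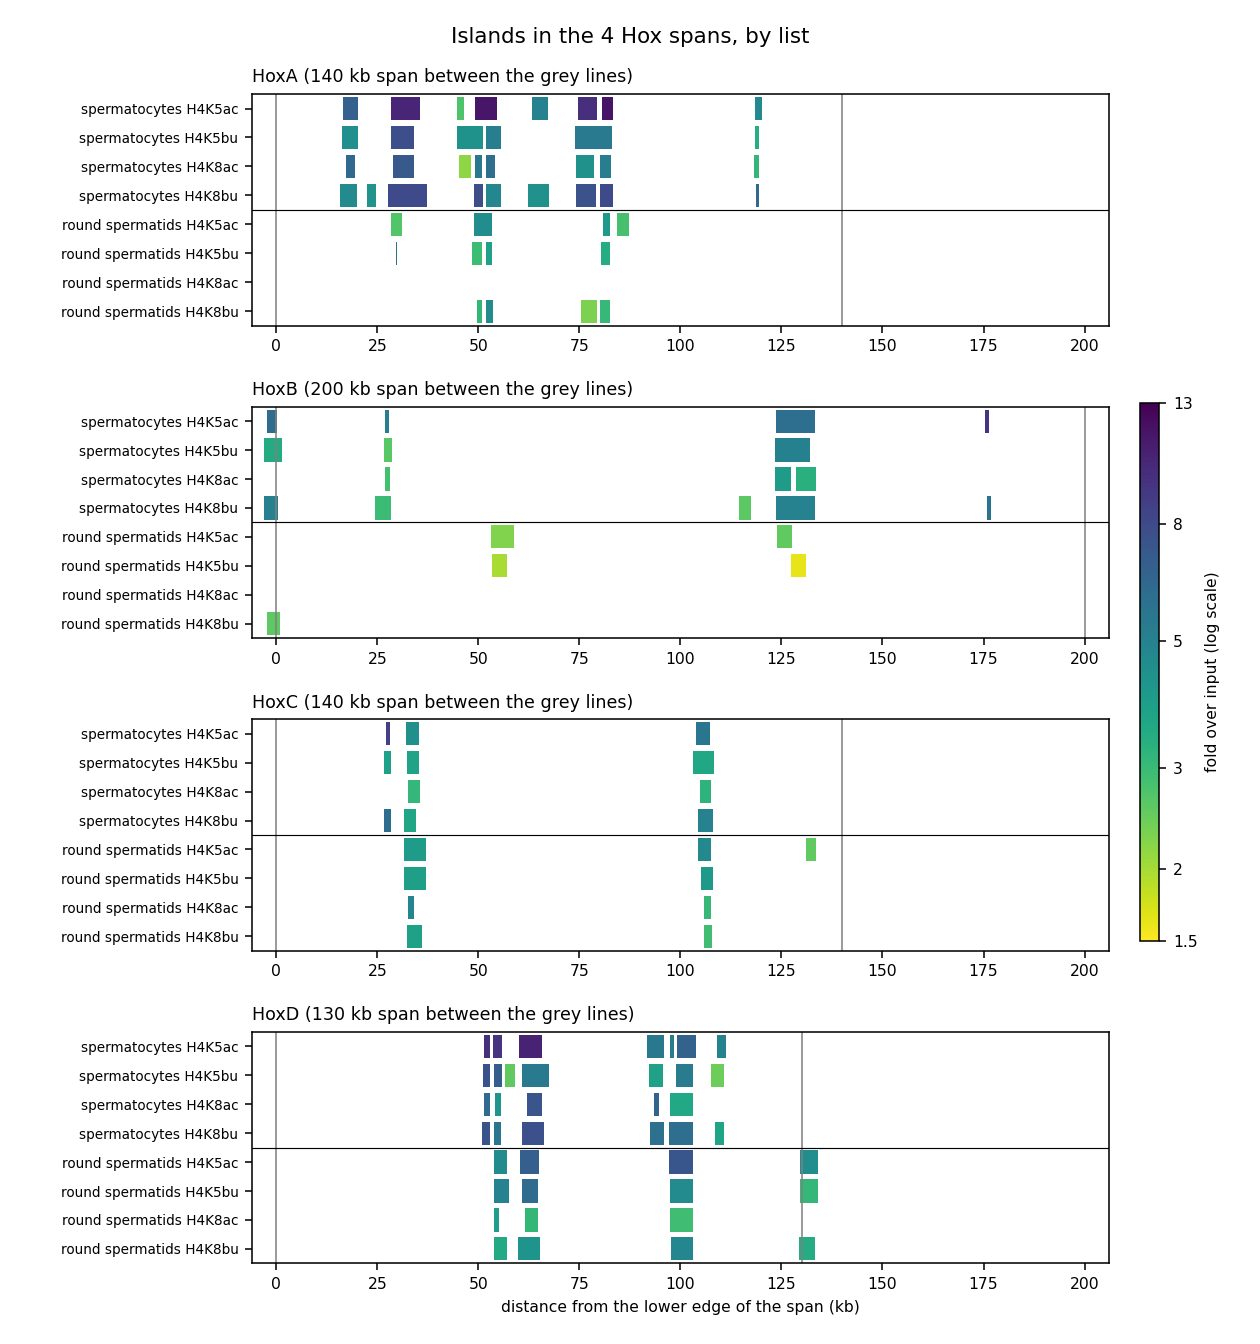
Islands in the 4 Hox spans, 1 lane per list, with distance from the lower edge of the span in kb on the x axis and fold over input as colour on a log scale. The 4 upper lanes of each panel are spermatocytes and the 4 lower lanes round spermatids. H4K8ac in round spermatids has no island in HoxA or HoxB. Every cluster keeps some blocks in both stages, and only HoxC and HoxD keep blocks of all 4 marks.

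HoxA was the most widely marked cluster in spermatocytes. There, H4K5ac islands covered 22.3% of the 140 kb span, H4K5bu 21.3%, H4K8ac 16.1% and H4K8bu 25.4%. In round spermatids the same marks covered 8.43%, 4.71%, 0% and 6.71%. Averaged over the marks, coverage was 21.3% in spermatocytes and 4.96% in round spermatids, a 4.29-fold ratio. Around HoxA, the flanks had means of 4.79% and 3.10%. Hence the spermatocyte cluster stood out from its surroundings in all 4 lists, at 3.37 to 5.31 times the flanks. For scale, 4.40% of 17649 autosomal windows of 140 kb were covered as widely as HoxA in spermatocytes, and 43.2% were in round spermatids. The round spermatid span still exceeded its flanks by 1.86 percentage points, but with the upper 50% of each list by fold the difference was -0.98.

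HoxD was second. In spermatocytes H4K5ac covered 16.6% of it, H4K5bu 18%, H4K8ac 10.5% and H4K8bu 15.8%. Round spermatids had 10.9%, 10.5%, 7.69% and 11.1%, so each mark was lower and all were still called. The 2 means were 15.2% and 10.04%, a 1.52-fold ratio, against flanks of 7.54% and 6.59%. Of 19006 autosomal windows of 130 kb, 10.4% were covered as widely as HoxD in spermatocytes and 23.7% in round spermatids. With flanks of 100 kb the excess of the round spermatid span over its flanks, 3.45 percentage points, turned to -0.19.

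HoxB was covered less than its flanks in both stages. H4K5ac covered 5.9% of the span in spermatocytes, H4K5bu 6.0%, H4K8ac 5.1% and H4K8bu 9.0%. In round spermatids the values were 4.7%, 3.8%, 0% and 0.5%, the last from an island at the span's edge. The means of 6.5% and 2.25% lay below those of the flanks, 11.8% and 10.1%. The spermatocyte mean was above the genome's 5.52%, and the round spermatid mean was below its 6.37%. Among 12349 autosomal windows of 200 kb, 32.8% were covered as widely as HoxB in spermatocytes and 66.1% in round spermatids.

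HoxC was the cluster with the smallest stage difference. In spermatocytes H4K5ac covered 5.43%, H4K5bu 7.0%, H4K8ac 4.14% and H4K8bu 6.0%, and in round spermatids the values were 8.0%, 6.0%, 2.43% and 4.0%. H4K5ac therefore covered more of HoxC in round spermatids, and the other marks less. The means were 5.64% and 5.11%, a difference of 0.54 percentage points that turned to -1.21 with the upper 50% of each list. The flanks had 12.0% and 15.9%, mostly from the upper side, towards Smug1 and Cbx5 in the gene order, where coverage was 18.65% and 25.9%. With flanks of 100 kb the spermatocyte span no longer lay below its surroundings, at 0.24 in place of -6.32 percentage points.

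Over the 4 spans together, mean coverage was 11.6% in spermatocytes and 5.19% in round spermatids. The flanks of the spans had 9.01% and 8.92%, and the whole genome 5.52% and 6.37%. The stage difference of the spans thus ran against that of the genome, where round spermatid islands covered slightly more. Reads gave the same order. Hox islands held 3765 of the 8187368 ChIP reads in H4K5ac islands of spermatocytes, 3957 of 8054706 of H4K5bu, 2288 of 5587630 of H4K8ac and 4841 of 9230541 of H4K8bu. In round spermatids they held 1559 of 8435692, 1600 of 9227752, 474 of 4768412 and 1247 of 8367957. The input reads counted in the same islands moved with them, from 876, 1025, 660 and 1039 reads to 791, 657, 209 and 536. The round spermatid H4K8ac list was the shortest of the 8, with 28031 islands, and without H4K8ac in either stage the coverage difference between stages was 6.37 percentage points, as with it.

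**Figure D2:**
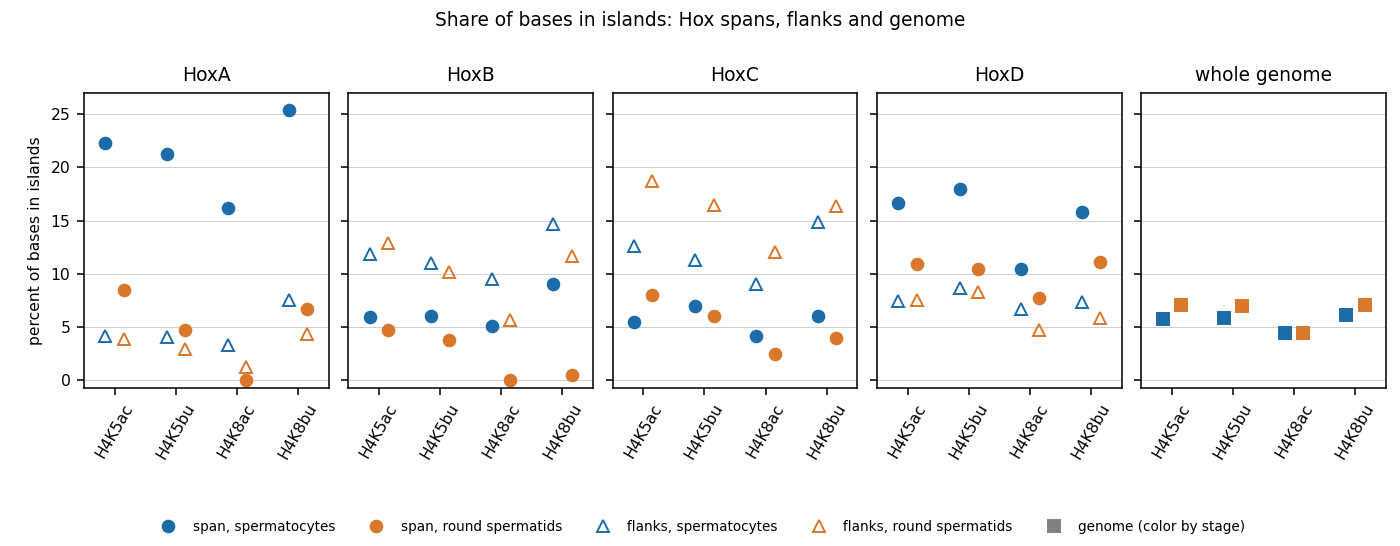
Percent of bases in islands for each mark, in the Hox spans (filled circles), their flanks of 200 kb a side (open triangles) and the whole genome (squares), with spermatocytes in blue and round spermatids in orange. HoxA in spermatocytes lies at 16.1% to 25.4%, far above its flanks, and H4K8ac lies at 0% in HoxA and HoxB of round spermatids.

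The islands of HoxA and HoxB also had lower folds in round spermatids. Fold over input was the ratio of summed ChIP to summed input reads, times the constant of each list. In HoxA, H4K5ac had a fold of 8.47 (interval 7.5 to 9.59) in spermatocytes, and the round spermatid value was 3.61 (3.01 to 4.33). H4K8bu there went from 6.34 (5.67 to 7.1) to 3.03 (2.49 to 3.70), and H4K5bu from 5.18 (4.61 to 5.82) to 3.45 (2.76 to 4.33). None of these intervals overlapped between stages. Round spermatid folds were 0.426, 0.478 and 0.666 times those of spermatocytes for H4K5ac, H4K8bu and H4K5bu in HoxA. The pooled genome folds were lower too, at 0.853, 0.80 and 0.958 times. Each stage pools its own islands, which for H4K5ac covered 22.3% of HoxA in spermatocytes and 8.43% in round spermatids. In HoxB, H4K5ac went from 6.06 (5.17 to 7.13) to 2.37 (1.91 to 2.94), and H4K5bu from 4.21 (3.62 to 4.91) to 1.8 (1.45 to 2.23).

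In HoxC and HoxD the H4K5bu fold was not lower in round spermatids. It was 3.67 (3.01 to 4.50) and 3.96 (3.22 to 4.89) in HoxC, with spermatocytes given first, and 4.56 (4.02 to 5.17) and 4.58 (3.98 to 5.30) in HoxD. H4K5ac in HoxD was 7.5 (6.55 to 8.63) and 6.02 (5.22 to 6.97), intervals that overlapped. H4K8ac in HoxD went from 5.12 (4.30 to 6.12) to 3.08 (2.54 to 3.75). In HoxC the same mark had 3.15 (2.46 to 4.07) and 3.61 (2.61 to 5.06). H4K8bu was lower in both clusters, at 6.14 (5.37 to 7.05) and 4.15 (3.59 to 4.82) in HoxD, intervals that did not overlap, and at 4.62 (3.75 to 5.73) and 3.34 (2.56 to 4.39) in HoxC. H4K5ac in HoxC was 5.29 (4.24 to 6.63) and 3.77 (3.11 to 4.57).

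Across the genome the pooled fold of H4K5ac was 6.22 in spermatocytes and 5.30 in round spermatids, that of H4K5bu 4.16 and 3.98, that of H4K8ac 4.05 and 3.03, and that of H4K8bu 4.69 and 3.75. Over the 4 Hox spans the same pairs were 7.26 and 4.17, 4.58 and 3.59, 4.31 and 3.22, and 5.52 and 3.56. In spermatocytes the pooled Hox folds were therefore above the genome's for every mark. This held within HoxA and HoxD, but HoxC lay below the genome for every mark and HoxB for all but H4K5bu. In round spermatids the pooled Hox folds were lower for H4K5ac, H4K5bu and H4K8bu, and higher for H4K8ac. HoxD alone lay above the genome for every mark in that stage. The pooled H4K8ac fold of round spermatids came from 5 islands, all in HoxC and HoxD, with 474 ChIP and 209 input reads. The spermatocyte H4K8ac fold pools islands of all 4 clusters. The round spermatid fold over the spermatocyte fold of H4K5ac was 0.575 in Hox and 0.853 genome-wide. That ratio was 0.784 and 0.958 with H4K5bu, 0.645 and 0.80 with H4K8bu, and 0.746 and 0.747 with H4K8ac. The Hox ratio of H4K8ac thus sets HoxC and HoxD against all 4 clusters. Within HoxC it was 1.15 and within HoxD 0.602, with no round spermatid island in HoxA or HoxB. Input reads per kb of island were 11.8 to 13.1 over the marks in spermatocyte Hox islands and 14.5 to 14.8 in all islands of those lists. They were 14.9 to 16.3 in the Hox islands of round spermatids and 18.1 to 19.3 genome-wide, so in each stage Hox islands had fewer input reads per kb than the average island. The part of this in the folds was not tested.

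Counted by merged region, 16 of the 25 Hox regions (64.0%) had fewer marks in round spermatids than in spermatocytes. The same held for 39.3% of all 59989 regions and 29 of the 59 flank regions. By cluster it held for 7 of 8 regions in HoxA and 5 of 6 in HoxB, but for 1 of 4 in HoxC and 3 of 7 in HoxD. More marks in round spermatids were found in 4 of 25, against 33.2% of all regions. Regions with all 4 marks in spermatocytes but no island in round spermatids numbered 5 of 25 (background 11.4%, flanks 6 of 59). The reverse, no mark in spermatocytes and all 4 in round spermatids, occurred once (background 4.91%), in a region that crosses the edge of HoxD. All 4 marks in both stages were found in 5 of 25 (background 26.1%), all of them in HoxC and HoxD, and any mark in both stages in 10 of 25 (background 47.5%). A call of any mark in spermatocytes alone was seen in 11 of 25 (background 29.3%), and in round spermatids alone in 4 of 25 (background 23.1%). In spermatocytes 15 of 25 regions had all 4 marks (background 45.9%), or 15 of the 21 with any mark (background 59.7%). In round spermatids 6 of 25 did (background 38.6%), or 6 of the 14 with any mark (background 54.7%), and 2 of those 14 lacked H4K8ac alone (background 15.3%). H4K8bu was the single mark of 2 of the 21 spermatocyte regions (background 3.61%). An absent call is not a measured absence, since the files give no reads outside islands. A region that crosses the edge of a span is counted with all its islands. In pooled cells, marking of fewer cells and weaker marking of each cell cannot be told apart.

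The marks differed in how often a call was confined to spermatocytes. For H4K5ac, 9 of the 23 Hox regions called in either stage were called in spermatocytes alone (background 30.2%), 4 in round spermatids alone (background 21.3%) and 10 in both (background 48.5%). With H4K5bu, 8 of 19 were called in spermatocytes alone (background 25.6%), 2 in round spermatids alone (background 32.1%) and 9 in both (background 42.3%). For the K8 marks the share called in spermatocytes alone was over 50% in the 4 spans together. H4K8ac had 10 of 16 regions there alone (background 38.0%), 1 in round spermatids alone (background 19.3%) and 5 in both (background 42.7%). H4K8bu had 13 of 22 there alone (background 31.6%), 1 in round spermatids alone (background 20.9%) and 8 in both (background 47.5%). From HoxA to HoxD, the H4K8ac regions called in spermatocytes alone were 5 of 5, 3 of 3, 0 of 2 and 2 of 6. Those of H4K8bu were 5 of 7, 4 of 5, 1 of 3 and 3 of 7. In the flanks the regions called in spermatocytes alone were 20 of 51, 14 of 45, 19 of 39 and 21 of 51, in the order H4K5ac, H4K5bu, H4K8ac, H4K8bu.

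Where a mark was called in both stages, its fold was mostly lower in round spermatids. H4K5ac was lower in 9 of 10 such Hox regions (background 60.1%), by at least 1.5 times in 6 (background 35.1%) and higher by that much in 0 (background 17.6%). H4K8bu was lower in 7 of 8 (background 62.4%), by at least 1.5 times in 6 (background 35.5%) and higher by that much in 0 (background 11.8%). H4K5bu was lower in 5 of 9 (background 55.7%), by at least 1.5 times in 2 (background 20.7%) and higher by that much in 0 (background 17.8%), shares of lower folds that are near the background. H4K8ac was lower in 4 of 5 (background 71.6%), by at least 1.5 times in 1 (background 40.7%) and higher by that much in 1 (background 6.96%). Lower folds made up most of the flank regions too. There H4K5ac was lower in 22 of 25 regions, H4K5bu in 15 of 23, H4K8ac in 17 of 18 and H4K8bu in 18 of 25. By at least 1.5 times they were lower in 11 of 25, 6 of 23, 11 of 18 and 10 of 25.

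**Figure D3:**
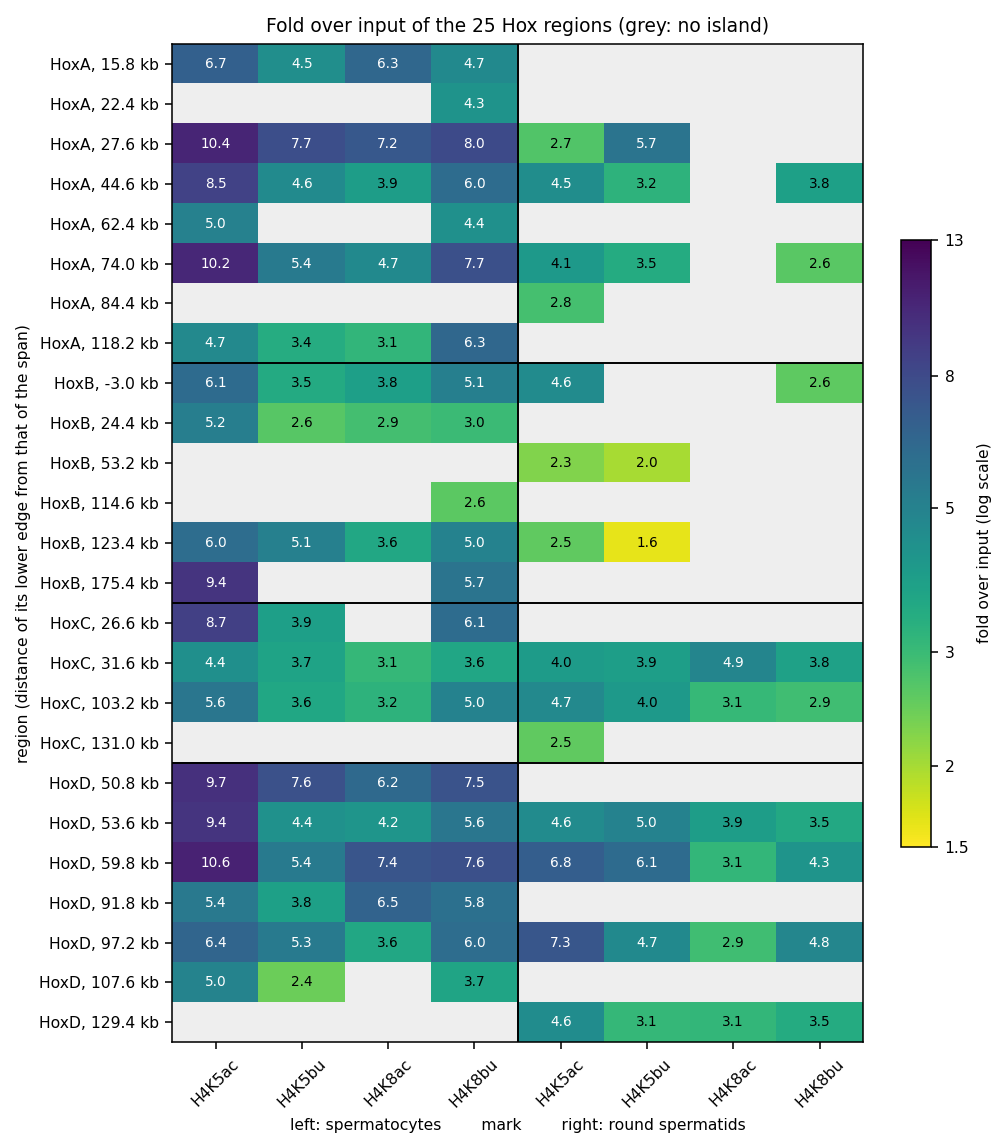
Fold over input of each of the 25 merged Hox regions (y axis, named by cluster and distance from the lower edge of the span) in the 8 lists (x axis, spermatocytes left, round spermatids right), with colour on a log scale and grey where no island was called. All 4 marks are present in both stages only in 5 regions of HoxC and HoxD, and the highest folds, 10.2 to 10.6, are H4K5ac in spermatocytes.

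In HoxA the region with the most ChIP reads was chr6:52164001-52173200. In spermatocytes H4K5ac had a fold of 10.2 there (8.10 to 13, 514 ChIP and 85 input reads), H4K5bu 5.37 (4.36 to 6.65), H4K8ac 4.67 (3.66 to 6.0) and H4K8bu 7.70 (6.17 to 9.69). In round spermatids it had 4.09 (2.59 to 6.59), 3.45 (2.30 to 5.29), no H4K8ac island, and 2.6 (2.02 to 3.36). The H4K5ac and H4K8bu folds at this place were lower in round spermatids, with intervals that did not overlap between stages. H4K5bu was lower with intervals that overlapped, and H4K8ac had no measured level in round spermatids. The region with the highest mean log2 fold, among those called in at least 4 lists, was chr6:52117601-52127200, with spermatocyte folds of 10.4, 7.73, 7.16 and 8.01 in the order H4K5ac, H4K5bu, H4K8ac, H4K8bu. Only H4K5ac (2.71, 1.78 to 4.13) and H4K5bu (5.69, 2.42 to 15.5) were called there in round spermatids. The H4K5bu call was a 400 bp island with 27 ChIP and 7 input reads, too few to set its level.

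HoxA also held 2 regions that carried every mark in spermatocytes but had no island in round spermatids. At chr6:52105801-52110200 the folds were 6.70, 4.46, 6.30 and 4.66 in the same order, with 81 to 173 ChIP reads. At chr6:52208201-52210200, nearest to the upper edge, they were 4.71, 3.41, 3.14 and 6.32, with 46 to 64 ChIP reads. Both rest on far fewer reads than the central regions.

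HoxB had most of its reads in 1 block, chr11:96163401-96173600. In spermatocytes H4K5ac had 5.99 (4.96 to 7.27), H4K5bu 5.09 (4.17 to 6.25), H4K8ac 3.56 (2.90 to 4.38) and H4K8bu 4.98 (4.15 to 6.01), from 369 to 614 ChIP reads. In round spermatids only the K5 marks were called, at 2.53 (1.8 to 3.57) and 1.62 (1.19 to 2.22), from 79 and 89 ChIP reads. Their islands covered 3800 bp each, where the spermatocyte islands covered 8600 to 9800 bp. At chr11:96064401-96068600 all marks were called in spermatocytes (5.17, 2.62, 2.87 and 2.98) and none in round spermatids. Conversely, chr11:96093201-96098800 was called in round spermatids alone, with H4K5ac at 2.26 (1.71 to 3.00) and H4K5bu at 1.98 (1.47 to 2.70), among the weakest folds in the spans. Among HoxB regions called in at least 4 lists, the one with the highest mean log2 fold, 2.04, was chr11:96037001-96041400. It lies 31.8% inside the span, and its folds of 6.09, 3.47, 3.83 and 5.11 in spermatocytes belong largely to the flank. Its round spermatid folds were 4.59 for H4K5ac and 2.57 for H4K8bu. The smaller region chr11:96215401-96216800, chosen after its values were seen, had a higher mean of 2.87. It was called in spermatocytes alone, with H4K5ac at 9.41 (4.16 to 24.9, 39 ChIP and 7 input reads) and H4K8bu at 5.68 (2.84 to 12.6).

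HoxC kept 2 regions in both stages. The one with the most reads, and with the highest mean log2 fold (1.97) among HoxC regions called in at least 4 lists, was chr15:102843201-102848400, with H4K5ac at 5.55 (4.05 to 7.73) in spermatocytes. Round spermatids had 4.70 (3.34 to 6.70). In the same order of stages, H4K5bu had 3.59 (2.75 to 4.75) and 4.05 (2.95 to 5.62), H4K8ac 3.22 (2.26 to 4.67) and 3.07 (2.05 to 4.66), and H4K8bu 5.00 (3.70 to 6.86) and 2.91 (1.97 to 4.35). For all 4 marks the intervals of the stages overlapped. The other such region was chr15:102771601-102777000, with spermatocyte folds of 4.42, 3.73, 3.08 and 3.61 in the order H4K5ac, H4K5bu, H4K8ac, H4K8bu. Round spermatids had 3.97, 3.89, 4.87 and 3.77 there. Beside it, chr15:102766601-102768400, called in 3 lists with a mean log2 fold of 2.55, had H4K5ac at 8.65 (4.00 to 21.4), H4K5bu at 3.86 and H4K8bu at 6.07 in spermatocytes, from 41 to 82 ChIP reads, and no island in round spermatids.

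HoxD had 3 regions with all marks in both stages, and a further 3 that were called in spermatocytes alone. The region with the most reads, chr2:74587201-74593800, had intervals that overlapped between stages for every mark. H4K5ac was 6.41 (4.93 to 8.41) and 7.29 (5.78 to 9.28), H4K5bu 5.33 (3.97 to 7.28) and 4.67 (3.69 to 5.96), H4K8ac 3.58 (2.72 to 4.74) and 2.90 (2.25 to 3.75), and H4K8bu 6.01 (4.69 to 7.80) and 4.80 (3.78 to 6.15). It was the Hox region in which the H4K5ac fold was not lower, out of 10 called in both stages. At chr2:74549801-74557600 H4K5ac was lower in round spermatids, at 10.6 (8.11 to 14.0) and 6.83 (4.99 to 9.48), with intervals that overlapped. The K8 intervals did not overlap there. H4K8ac was 7.37 (5.30 to 10.5) and 3.11 (2.13 to 4.59), and H4K8bu was 7.65 (5.91 to 10.0) and 4.26 (3.15 to 5.82). H4K5bu there was 5.39 (4.29 to 6.82) and 6.09 (4.40 to 8.56).

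Among HoxD regions called in spermatocytes alone, chr2:74540801-74542800 had the highest mean log2 fold of the cluster, with H4K5ac at 9.67 (5.05 to 20.3), H4K5bu at 7.62 (4.12 to 15.4), H4K8ac at 6.22 (3.22 to 13.2) and H4K8bu at 7.47 (4.13 to 14.6). It rested on 55 to 82 ChIP and 11 to 13 input reads per list. The region chr2:74581801-74586000 had 5.42, 3.81, 6.53 and 5.84, and chr2:74597601-74601400 had 4.95 for H4K5ac, 2.44 for H4K5bu and 3.69 for H4K8bu. At the upper edge, chr2:74619401-74624000 showed the opposite, with no island in spermatocytes and folds of 4.55, 3.08, 3.10 and 3.45 in round spermatids. Most of it lies outside the span, and this count is 0 when at least 50% of a region must be inside. Regions with 3 or 4 calls in spermatocytes and no island in round spermatids thus numbered 7 of 25 over the clusters (background 16.2%, flanks 10 of 59).

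Within a span the islands were unevenly placed. In spermatocytes the lower part of HoxA, up to its midpoint, was covered at 31.4% by H4K5ac, 28.3% by H4K5bu, 20.6% by H4K8ac and 38.6% by H4K8bu. Its upper part had 13.1%, 14.3%, 11.7% and 12.3%. In HoxB the order was reversed, with 1.2%, 3.4%, 1.2% and 4.4% in the lower part and 10.6%, 8.6%, 9.0% and 13.6% in the upper. HoxD had 13.2%, 15.4%, 8.92% and 12.0% in the lower part and 20.0%, 20.6%, 12.0% and 19.7% in the upper. In the gene order of GRCm38.p6, the genes of the head end lie at the lower end of HoxA and at the upper ends of HoxB and HoxD. HoxC, where they lie at the upper end too, was nearly even, with 5.71%, 6.57%, 4.29% and 6.86% against 5.14%, 7.43%, 4.0% and 5.14%. Round spermatids did not keep these orders for every mark. HoxD then had 12.3%, 11.7%, 6.77% and 12.6% in the lower part and 9.54%, 9.23%, 8.62% and 9.54% in the upper, so that only H4K8ac had more in the upper. HoxB had 5.6%, 3.8%, 0% and 1% against 3.8%, 3.8%, 0% and 0%, with no mark higher in the upper part. HoxA had 10.0%, 6.29%, 0% and 4.29% against 6.86%, 3.14%, 0% and 9.14%, so that H4K8bu had more in the upper. In HoxC the values were 7.71%, 7.71%, 2.29% and 5.14% against 8.29%, 4.29%, 2.57% and 2.86%. Where each gene lies relative to the midpoints was not determined in mm9.

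Each cluster also had a long stretch without an island of any list. It was 30.8 kb in HoxA (chr6:52177401-52208200), 55.8 kb in HoxB (chr11:96098801-96154600), 66.2 kb in HoxC (chr15:102777001-102843200) and 50.8 kb in HoxD (chr2:74490001-74540800). The last continued below the span to a full length of 69.2 kb. The genome had 59967 stretches between neighbouring regions, with a median of 19.6 kb. Of these, 36.7%, 20.6%, 16.7% and 15.7% were at least as long as those of HoxA, HoxB, HoxC and HoxD. The HoxD share refers to its full length of 69.2 kb. Such lengths are therefore common in the genome.

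In spermatocytes the share of marked Hox bases with all 4 marks was close to that of the genome, and in round spermatids it was lower. Of the 103400 bp marked by any list in spermatocytes, 41.2% carried all 4 marks, against 41.0% genome-wide. Of the 58200 bp marked in round spermatids, 22.7% did, against 41.8%. HoxA went from 41.7% to 0% and HoxB from 40.0% to 0%, since H4K8ac was not called there. HoxC went from 41.8% to 29.3%, while HoxD had 41.0% and 63.6%. With each list shortened by fold to 28031 islands, the length of the round spermatid H4K8ac list, the round spermatid share over the spans was 40.7% and that of spermatocytes 42.2%. With the upper 50% of each list by fold the shares were 17.1% and 32.2%. Without H4K8ac, 39.2% of round spermatid and 52.4% of spermatocyte bases carried the other 3 marks. The genome share without H4K8ac was not computed, so these values have no background beside them.

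**Figure D4:**
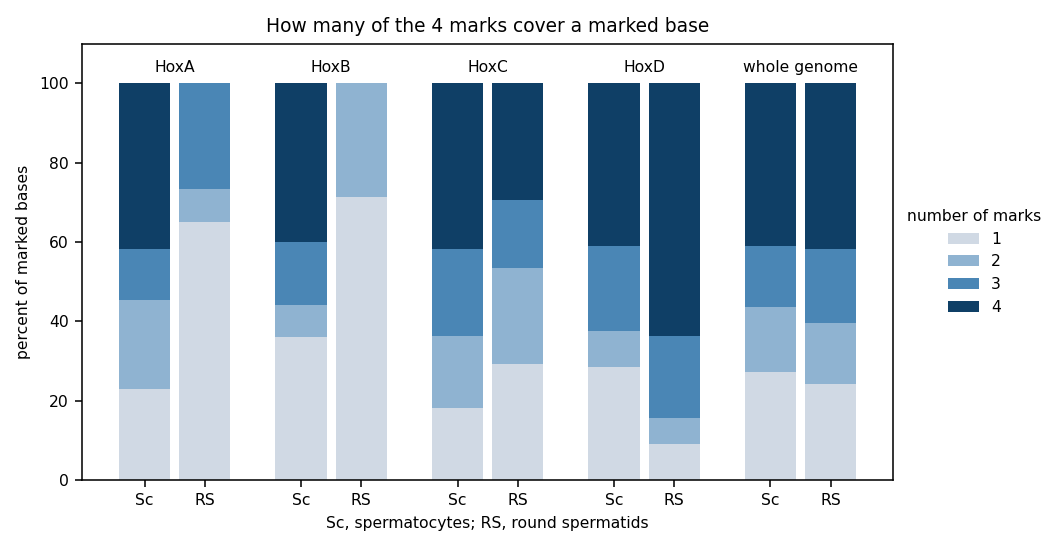
Percent of marked bases (y axis) that carry 1, 2, 3 or 4 of the marks, from light to dark, in spermatocytes (Sc) and round spermatids (RS) of each cluster and of the whole genome. The share with all 4 marks is 41.7% and 0% in HoxA and 41.0% and 63.6% in HoxD, where the genome has 41.0% and 41.8%.

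In round spermatids a single mark covered 65.1% of the marked bases of HoxA, 71.4% in HoxB, 29.3% in HoxC and 9.09% in HoxD. The genome-wide share was 24.2%. In the Hox spans the single mark was most often H4K5ac. Bases with H4K5ac alone made up 25.8% of marked Hox bases in round spermatids and 7.51% genome-wide. Of all Hox bases marked in either stage, 37.4% were marked in both, 50.5% in spermatocytes alone and 12.1% in round spermatids alone. Genome-wide these shares were 50.6%, 20.5% and 29%. The Jaccard index, the bases shared by a pair of lists over the bases in either, had a median of 0.613 over the 6 pairs of marks in spermatocytes and 0.437 in round spermatids within the spans. Its genome-wide medians were 0.607 and 0.623. For the same mark in the other stage it was 0.304 over 4 marks in the spans and 0.463 genome-wide. The lists of a stage share the cells and 1 input library, so marks are not replicates of one another.

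Butyryl and acetyl enrichment were compared at each lysine as log2 of the butyryl fold over the acetyl fold, in regions where both marks were called. The islands of such a pair need not share all their bases. At chr11:96163401-96173600 in round spermatids, with a K5 value of -0.65, the H4K5ac island was 96163801-96167600. The H4K5bu island there was 96167401-96171200. At K5 the spermatocyte median was -0.63 over 17 Hox regions, all 17 of them below 0, and -0.62 over all regions. In round spermatids it was -0.22 over 11 Hox regions and -0.37 over all. In the 9 regions that held the pair in both stages the median difference was 0.41 towards butyryl in round spermatids, with a range from -0.41 to 1.5, against 0.27 genome-wide. The round spermatid value was the higher in 7 of these 9, against 76.2% of all regions, so the Hox share is near the background. The largest difference was that of chr6:52117601-52127200, from -0.43 to 1.07, which rests on the 27-read H4K5bu island described above.

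At K8 the difference had the opposite sign. Its spermatocyte median was 0.40 over 15 Hox regions and 0.25 over all, and in round spermatids it was 0.04 over 6 Hox regions and 0.32 over all. Only 5 Hox regions, all in HoxC and HoxD, had both K8 marks in both stages. In these the median difference was -0.53, with a range from -0.71 to 0.40, against 0.06 genome-wide and 0.26 over 18 flank regions. With the upper 50% of each list by fold, 2 Hox regions were left and their median difference was -0.07. The round spermatid value was the higher in 1 of the 5, against 56.0% of all regions. The region at chr15:102843201-102848400 was among the 4 with a lower value in round spermatids, through an H4K8bu fold of 5.00 and 2.91 beside an H4K8ac fold of 3.22 and 3.07. A fold of each antibody is relative to its own list, so the level of the balance does not give the share of histones that carry either acyl group.

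**Figure D5:**
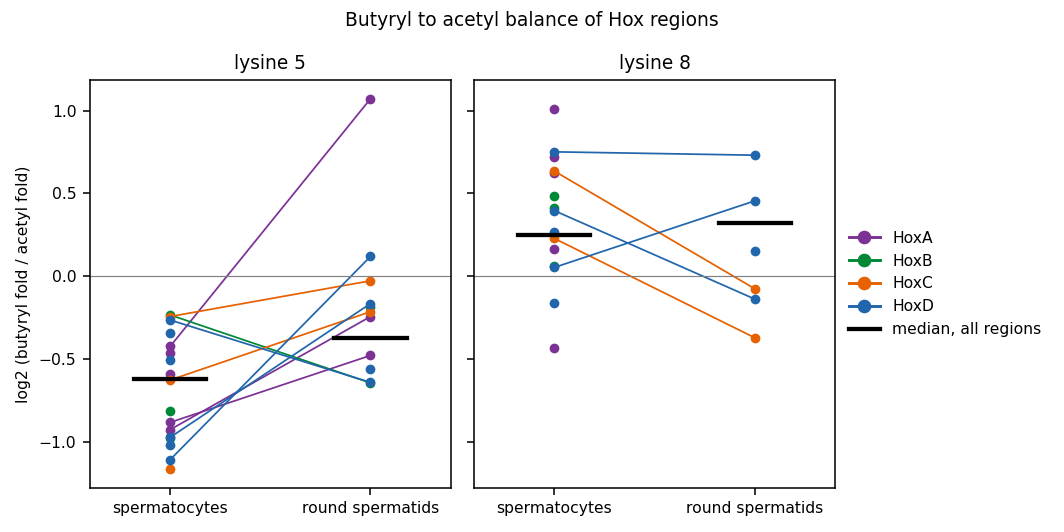
Log2 of the butyryl over the acetyl fold (y axis) of Hox regions at lysine 5 (left) and lysine 8 (right), with 1 point per region and stage, coloured by cluster, lines joining a region called in both stages, and black bars at the median of all regions. At lysine 5, 7 of 9 lines go up towards round spermatids, and at lysine 8, 4 of 5 go down.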

How the data were processed

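The 8 deposited lists held islands of ChIP-seq (chromatin immunoprecipitation and sequencing) in build mm9. Per the submitters' processing notes, CASAVA 1.8.2, Bowtie2 2.2.5, deepTools 1.5.11 and SICER were used; the sources used here give no settings, SICER version or handling of duplicates. The files, as deposited by the authors, gave each island's count of ChIP reads, count of input reads, p-value, fold (a ratio of ChIP to input) and q-value. The deposited fold equals the read ratio times 1 constant per list, apart from 4 islands with 0 input reads. All island edges lay on a 200 bp grid. Neither of the 2 input libraries had a list. ChIP reads in islands, the depth known here, were 4768412 to 9230541 per library.

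Islands overlapping by at least 1 bp were merged over lists into regions, and reads were summed per region and mark. Coverage was the percent of bases in islands. Calculations used Python 3.11.15, pandas 2.3.3, NumPy 2.4.6 and SciPy 1.17.1, and the interval code was tested on simulated data. Intervals are 95% exact. With 1 library per group no test was made. Regions described are the one with the most reads per span, the one with the highest mean log2 fold among regions called in at least 4 lists, and those with 3 or 4 marks in one stage alone; others were added after their values were seen. Members and lists were chosen with earlier results of these data known. Alternatives kept only the upper 50% of each list by fold, or used equal list lengths, q-value at most 1e-05, flanks of 100 and 500 kb, at least 50% inside a span, and leaving out H4K8ac.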

Additional observations from a re-analysis of the deposited data

How the results depend on the processing

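Over 129 comparisons with an alternative, 107 values stayed within the limits set, 18 moved and 4 reversed, and the cause was not tested. Of the 107, 26 came from the q-value limit, which removed no island of the spans. The limits were a fixed ratio for counts. For coverage and shares of bases they treated steps of 200 bp as independent. With the upper 50% of each list by fold, the Hox islands numbered 51 in spermatocytes and 19 in round spermatids, in place of 82 and 41. Regions with all 4 marks in spermatocytes but no island in round spermatids then numbered 3 in place of 5, those with the opposite pattern 0 in place of 1, and those with more marks in round spermatids 1 in place of 4. The share of marked bases with all 4 marks was 32.2% in spermatocytes and 17.1% in round spermatids. The HoxA round spermatid span minus its flanks was -0.98 percentage points, and the stage difference of HoxC was -1.21. The K8 balance difference was -0.07 over 2 regions in place of -0.53 over 5. With lists of equal length, the regions with more marks in round spermatids numbered 2, and the share with all 4 marks in round spermatids was 40.7%. With flanks of 100 kb, the spans minus their flanks differed by 4.51 percentage points in spermatocytes (2.54 with 200 kb) and -1.56 in round spermatids (-3.73). HoxC in spermatocytes gave 0.24 and HoxD in round spermatids -0.19. With at least 50% of a region inside the span, no region had the round spermatid pattern of all 4 marks (0 in place of 1). Leaving out H4K8ac was chosen after seeing the data and gave 52.4% and 39.2% of marked bases with all remaining marks. A q-value of at most 1e-05 changed no value, since the largest q-value of a Hox island was 9.28e-06. No paired analysis was possible because each group had 1 library and no replicate. Precision is limited by island read counts, as low as 27 ChIP and 7 input reads in a described region, and by the lack of reads outside islands.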
